A study of Mus musculus with 96 samples.

Results

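The libraries described here are the 6 from bone and the 6 from cartilage, 12 of the 96 in the series, chosen by their tissue labels and compared over all genes with the genotype held as a covariate. Each tissue has 3 libraries from wild-type mice and 3 from Scx-/- mice, and all mice were 3 weeks old. Scx encodes scleraxis, a transcription factor of tendon and ligament progenitors. The series covers 16 whole tissues, whose total RNA was barcoded during reverse transcription and pooled before library preparation (MuSeq), a procedure that favours the 3′ ends of polyadenylated transcripts. The deposited values are read counts per gene, without normalization. Tissues were frozen whole, so bone can hold marrow and either tissue can hold neighbouring muscle, fat or ligament, and in such samples fewer cells of a type cannot be told apart from less RNA per cell. Neither the sex of the animals nor a link between libraries of 1 animal is given in the labels or methods, so p-values measure the spread between libraries only.

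Bone and cartilage share a mesenchymal origin. Osteoblasts lay down a matrix of type I collagen that mineralizes, osteocytes are the osteoblasts enclosed in it, and osteoclasts, which descend from the monocyte lineage, dissolve it with acid and proteases. Chondrocytes make a matrix of type II collagen and aggrecan under the control of the transcription factor SOX9. In the growth plate they enlarge, switch to type X collagen and give way to bone, so a young long bone holds both tissues side by side.

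Bone libraries were shallower, with 42272 to 240564 counts against 205359 to 276018 in cartilage, and held counts for 4015 to 8471 genes against 7516 to 8821. One count therefore equalled 23.7 CPM, the count scaled to a common library total, in the shallowest bone library. Of 41575 gene symbols, 14858 had a count in at least 1 of the 12 libraries and were tested. Counting error alone did not account for the spread of replicates in any pair (chi-square per degree of freedom 9.81 to 17.65 over 12 pairs). The mean correlation between libraries was 0.455 within bone, 0.578 within cartilage (0.567 to 0.598) and 0.478 between them. With the skeletal muscle libraries of the series, the mean was 0.475 for bone (0.345 to 0.587) and 0.593 for cartilage (0.418 to 0.645). The effect of library depth on these values was not tested.

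Scx itself, at chr15:76457452-76459458 of mm10, was close to the limit of detection. The wild-type bone libraries held 18, 2 and 0 Scx counts and the Scx-/- bone libraries 0, 0 and 0. In cartilage the wild-type libraries held 0, 7 and 1 counts, while those labelled Scx-/- held 9, 0 and 0. The counts in replicate 1 of the cartilage libraries labelled Scx-/- stand against its label. They are few, and the labels and methods do not describe the knockout allele, so they do not settle the genotype. The counts of calls are also given without this library. Of the genes described below, Acp5, Ctsk, Mmp13, Frzb, Slc34a1, Umod, Sprr1a and Apoa2 lost their calls in that fit. Scx did not differ detectably between the tissues (log2 fold change of bone over cartilage −0.13 ± 1.08, SE; adjusted p = 0.973), and the sign of this value was positive under other scalings (0.17 on library totals) and without the doubted cartilage library (1.8).

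Between the tissues, 27 genes were higher in bone and 151 were higher in cartilage at an adjusted p under 0.05, by edgeR's quasi-likelihood test on TMM-scaled counts with Benjamini-Hochberg adjustment over all genes, which gives every adjusted p below. These are 0.182% and 1.02% of the genes tested, and 1.2% for both directions together. In CPM, all 6 bone libraries lay above all 6 cartilage libraries for 34 genes (0.229%), and the reverse held for 172 genes (1.16%). The balance of the calls depended on the scaling. Bone took 15.2% of the calls under TMM but 39% with RLE factors (48 and 75 genes) and 40% on library totals (50 and 75 genes), and the median log2 fold change of all genes moved from −0.38 under TMM to −0.05 and −0.08. With each of these scalings, 27 of the 27 bone genes and 74 of the 151 cartilage genes were called again. Without the cartilage library labelled Scx-/- replicate 1 the counts were 16 and 115. The bone count was 15 without wild-type cartilage replicate 1 or Scx-/- cartilage replicate 2, and 17 without wild-type bone replicate 1 or wild-type cartilage replicate 3.

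Genes of the osteoblast list together took 9.52% to 14.4% of all counts in bone (median 13%) against 2.65% to 8.54% in cartilage (median 3.89%). The 2 ranges did not meet. Col1a1 and Col1a2, described below, carry most of this sum, and neither passed the test under TMM. Of the 27 list members tested, 1 passed the test as higher in bone and 0 as higher in cartilage. A fold change towards bone was found for 23, against 6222 of the 14858 genes tested (8636 towards cartilage). The median log2 fold change was 0.95 beside −0.38 for all genes. With RLE factors or library totals, 6 members passed.

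The member that passed was Ibsp (chr5:104299171-104311469), which encodes bone sialoprotein, a protein of mineralizing matrix. Its level was 679 to 2436 CPM in bone (median 1355) and 175 to 685 CPM in cartilage (median 220.1). Only the lowest bone library and the highest cartilage library came together, the former just below the latter. Ibsp was 3.88-fold higher in bone (log2 fold change 1.96 ± 0.39, adjusted p = 0.000183), and the call held in each fit that left out 1 library.

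The abundant collagen genes of bone separated the tissues by their ranges, while the test depended on the scaling and the libraries. Col1a1, a chain of type I collagen, spanned 37850 to 57780 CPM in bone (median 48570) and 7033 to 37090 CPM in cartilage (median 14160). All bone libraries lay above all cartilage libraries, with 2 wild-type cartilage libraries close below the lowest of bone. The log2 fold change was 1.06 ± 0.40 and the adjusted p 0.366 under TMM, against 2.13e-08 on library totals. Col1a2, the partner chain, had a log2 fold change of 1.42 ± 0.34 with an adjusted p of 0.0798, against 1.42e-17 on library totals. Among Scx-/- libraries alone both passed (1.69e-16 for Col1a1 and 4.84e-19 for Col1a2), and among wild-type libraries alone Col1a2 passed (0.00693) and Col1a1 did not (0.557). Leaving out 1 library brought the call in 2 of 12 fits for Col1a1 and in 5 for Col1a2. Spp1, which encodes osteopontin, spanned 2928 to 4876 CPM in bone (median 3558) and 1203 to 2119 CPM in cartilage (median 1581), again without overlap (log2 fold change 0.91 ± 0.28, adjusted p = 0.0723, against 0.00402 on library totals), and it passed in 3 of 12 fits that left out 1 library. The 14 interstitial collagen genes tested took 8.41% to 11.8% of counts in bone and 1.49% to 7.26% in cartilage, and 0 of them passed with edgeR under TMM, 3 under either other scaling and 3 by DESeq2 or limma voom. At an unadjusted p under 0.05, 3 of the 14 leaned towards bone and 1 towards cartilage, where 3.88% and 7.07% of all genes tested did so (11% in either direction).

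Other osteoblast and osteocyte genes were low and variable. Bglap, the gene of osteocalcin, was at 0 in 1 bone library and at 282 to 485 CPM in the others, against 9.18 to 156 CPM in cartilage (log2 fold change 2.28 ± 0.67, adjusted p = 0.0564 under TMM). It passed on library totals (0.0201), with RLE factors (0.0135) and by DESeq2 (0.00907), and in 3 of 12 fits that left out 1 library. For Sp7, a transcription factor required for osteoblasts, the log2 fold change was 1.95 ± 0.81 with an adjusted p of 0.309. Osteocyte genes took 0.0764% to 0.167% of counts in bone and 0.0165% to 0.056% in cartilage, without overlap. Of 10 tested, 0 passed edgeR's adjusted threshold, 5 leaned towards bone at an unadjusted p under 0.05, 1 passed by DESeq2 and 3 by limma voom (median log2 fold change 1.15). Among them Dmp1, a matrix protein of osteocytes, spanned 148 to 686 CPM in bone and 18.4 to 188 CPM in cartilage (adjusted p = 0.159, and 0.0362 on library totals).

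**Figure D1:**
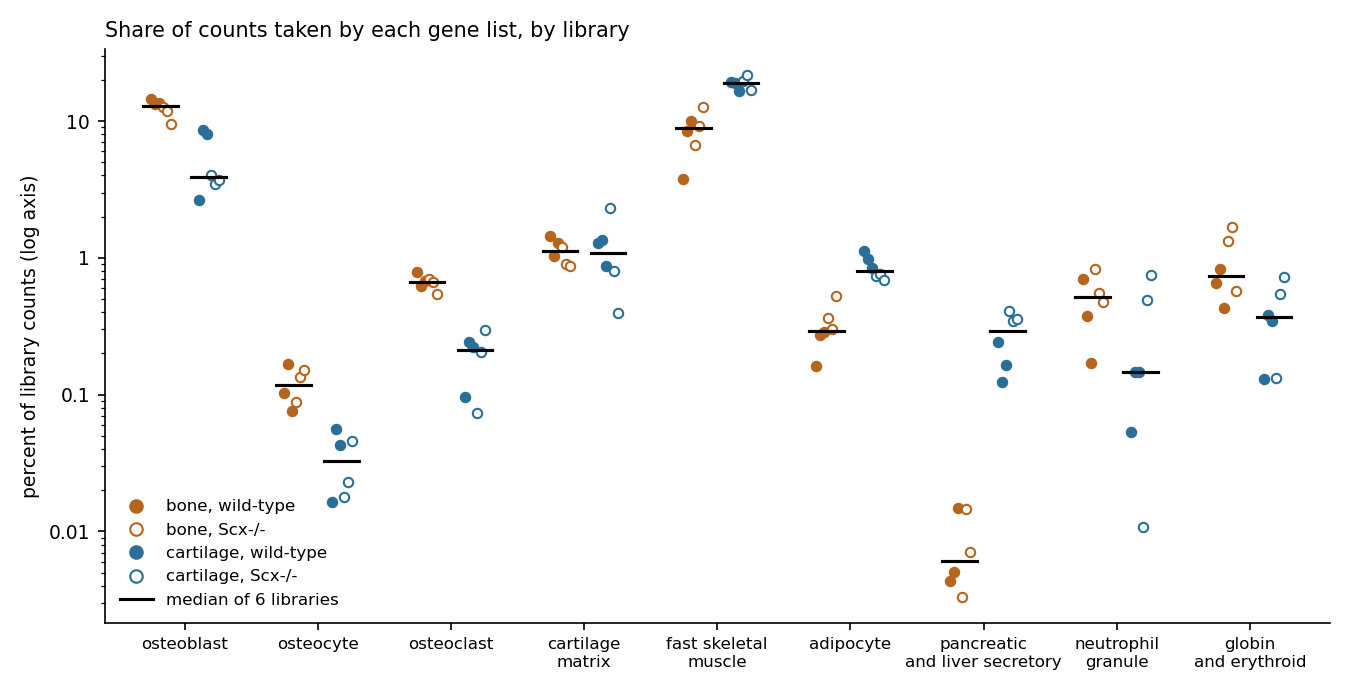
Percent of each library's counts taken by 9 gene lists (log axis), with 1 point per library, filled for wild-type and open for Scx-/-, and a bar at the median of 6 libraries. Osteoblast, osteocyte and osteoclast genes were higher in all bone libraries, fast skeletal muscle, adipocyte and pancreatic and liver genes were higher in all cartilage libraries, and the ranges of the cartilage matrix, neutrophil and erythroid lists overlapped.

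Of 20 osteoclast genes tested, 4 were higher in bone and 0 in cartilage, with a median log2 fold change of 1.21. Leaving out 1 library gave 2 to 5 osteoclast calls, and 1 to 3 for the osteoblast list. Osteoclast genes took 0.542% to 0.786% of counts in bone and 0.0732% to 0.299% in cartilage. The lowest bone library was above the highest cartilage library.

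Acp5 (chr9:22126727-22135711), which encodes tartrate-resistant acid phosphatase, ranged from 658 to 2794 CPM in bone (median 2062) and from 112 to 793 CPM in cartilage (median 635). One bone library fell within the range of cartilage. Its log2 fold change was 1.5 ± 0.35 (adjusted p = 0.0034), and 0.0516 without the cartilage library labelled Scx-/- replicate 1. Ctsk (chr3:95499256-95509362), whose product cathepsin K cleaves collagen in the resorption space, ranged from 875 to 1825 CPM in bone (median 1243) and from 28.9 to 612 CPM in cartilage (median 364). No cartilage library reached the lowest of bone. The log2 fold change was 1.54 ± 0.39 (adjusted p = 0.00991), with an adjusted p of 0.102 without the cartilage library labelled Scx-/- replicate 1 and 0.0678 without Scx-/- bone replicate 1.

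Mmp9 (chr2:164940780-164955850), a gelatinase of osteoclasts and neutrophils, ranged from 284 to 1994 CPM in bone (median 1184) and from 110.2 to 384 CPM in cartilage (median 325). The lowest bone library lay within the range of cartilage and the other 5 above it. Mmp9 was 3.16-fold higher in bone (log2 fold change 1.66 ± 0.40, adjusted p = 0.00544), and the adjusted p was 0.193 without wild-type bone replicate 1. Ckb (chr12:111669361-111672338), the brain-type creatine kinase that osteoclasts also express, ranged from 549 to 1931 CPM in bone (median 1001) and from 32.1 to 322 CPM in cartilage (median 191). Its ranges did not meet, and it was 4.25-fold higher in bone (log2 fold change 2.09 ± 0.45, adjusted p = 0.000678). The fusion genes Ocstamp and Dcstamp were detected in few libraries, with adjusted p-values of 0.578 and 0.6.

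Of the 26 matrix protease and inhibitor genes tested, 3 were higher in bone and 0 in cartilage. These were Ctsk, Mmp9 and Mmp13, and Ctsk and Mmp9 belong to the osteoclast list too. Mmp13 (chr9:7272514-7283331), a collagenase of terminal hypertrophic chondrocytes and osteoblasts, ranged from 42.4 to 1472 CPM in bone (median 525) and from 90.7 to 302 CPM in cartilage (median 143). One wild-type bone library lay below all of cartilage and the other 5 lay above it. The log2 fold change was 1.73 ± 0.48 (adjusted p = 0.0322), and the call was lost in 7 of 12 fits that left out 1 library, among them that without the cartilage library labelled Scx-/- replicate 1 (adjusted p = 0.0568). The 250 bases before its start, chr9:7272264-7272513 on the plus strand of GRCm38.p6 (RefSeq), are shown because 3 of the 4 motifs searched occur in them. The capitals mark the letters AACCACA, known from RUNX factors, 119 bases before the start. They also mark TGACTCA, known from AP-1, 35 bases before it, and the TATA box, searched as TATAAA, 16 bases before it. Both strands were searched, and the marked letters do not overlap.
Mmp13: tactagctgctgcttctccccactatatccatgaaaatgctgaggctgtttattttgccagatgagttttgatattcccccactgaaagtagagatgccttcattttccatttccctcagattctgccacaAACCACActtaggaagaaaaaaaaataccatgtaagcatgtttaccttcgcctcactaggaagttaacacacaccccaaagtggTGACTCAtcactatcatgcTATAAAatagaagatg
Among the 10719 genes tested that have an upstream sequence of this length, 4.01% held the RUNX letters, 4.45% those of AP-1 and 8.91% the TATA box. Of the 21 bone genes with such a sequence, 1, 2 and 6 held them, which is a description of these windows and no evidence of binding.

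Under TMM, 0 genes of the cartilage matrix and chondrocyte regulator lists passed as higher in the labelled cartilage. Cartilage matrix genes took 0.392% to 2.33% of counts in cartilage (median 1.08%) and 0.878% to 1.44% in bone (median 1.12%), and of 25 members tested 0 passed as higher in cartilage and 1 as higher in bone. In sign, 21 of the 25 had a fold change towards cartilage, against 8636 of the 14858 genes tested. The median log2 fold change of the matrix genes was −0.62 beside −0.38 for all genes. Of their 9 defining markers, 2 were at 0 in all 12 libraries. At an unadjusted p under 0.05 by edgeR, 4 matrix genes leaned towards cartilage and 2 towards bone, against 7.07% and 3.88% of all genes tested. As higher in cartilage, DESeq2 called 0 of them and limma voom 1, and as higher in bone each called 2. Of 12 chondrocyte regulators tested, 0 passed in either direction by edgeR or DESeq2, while 3 leaned towards cartilage at an unadjusted p under 0.05 and limma voom called 2. Of these 12, 8 had a fold change towards cartilage, near the share of all genes tested (8636 of 14858). The median log2 fold change was −1.56, or −0.9 over the 11 above the floor of 3 counts in a tissue, with genes at 0 in the other taken at their bound.

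Col2a1, the gene of type II collagen, spanned 1369 to 10240 CPM in cartilage (median 3881) and 2886 to 6302 CPM in bone (median 4545). The cartilage libraries thus enclosed those of bone on both sides, and the 2 extremes of cartilage were both labelled Scx-/-. The log2 fold change was −0.41 ± 0.24 (adjusted p = 0.513). Both tissues stood far above skeletal muscle, where the mean of Col2a1 was 35.7 CPM. For Acan, which encodes aggrecan, the range was 123 to 1265 CPM in cartilage (median 457) and 241 to 382 CPM in bone (median 295), with a log2 fold change of −1.27 ± 0.46 and an adjusted p of 0.192. Sox9 ranged from 29.0 to 384 CPM in cartilage (median 166) and from 0 to 113 CPM in bone (median 20.2), and its log2 fold change was −2.49 ± 0.80 with an adjusted p of 0.109. The medians of both Acan and Sox9 were higher in cartilage, without passing the test under TMM or on library totals. Sox9 passed in 1 of 12 fits, without wild-type bone replicate 1 (adjusted p = 0.0472). Without the cartilage library labelled Scx-/- replicate 1, the log2 fold change was 0.05 for Col2a1 and −0.70 for Acan. Among Scx-/- libraries alone it went from −0.6 to 0.41 for Col2a1, from −1.4 to −0.1 for Acan and from −2.53 to −1.39 for Sox9 when that library was left out.

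Prg4 (chr1:150449412-150466165), the gene of lubricin, which is made by the superficial cells of articular cartilage and by synovium, was the member of the matrix list that passed under TMM, and it was higher in bone. The level of Prg4 was 291 to 720 CPM in bone (median 533) and 0 to 147 CPM in cartilage (median 91.4). The ranges did not touch. Prg4 was 4.97-fold higher in bone (log2 fold change 2.31 ± 0.57, adjusted p = 0.00747), with an adjusted p of 0.0821 without wild-type cartilage replicate 3. Across the 16 tissues of the series its mean was highest in bone (532 CPM), and its mean in cartilage was 80.6 CPM. Col11a1, a chain of type XI collagen, also passed towards bone on library totals (adjusted p = 0.0127), with RLE factors (0.00826) and by DESeq2 (0.00929), against 0.154 under TMM.

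Among 11 hypertrophic and growth plate genes tested, 2 were higher in bone, Mmp13 and Pth1r. Pth1r (chr9:110722085-110747145), the receptor for parathyroid hormone and its related peptide, ranged from 291 to 1159 CPM in bone (median 475) and from 22.9 to 227 CPM in cartilage (median 72.5). Its ranges were apart (log2 fold change 1.98 ± 0.55, adjusted p = 0.0307), although the call was lost in 7 of 12 fits that left out 1 library. Col10a1, the collagen of hypertrophic chondrocytes, leaned the other way, with 254 to 5661 CPM in cartilage (median 1962) and 148 to 1404 CPM in bone (median 738). The tissues overlapped, and the log2 fold change of −2.05 ± 0.68 had an adjusted p of 0.256 under TMM and 0.00294 on library totals. Col10a1 passed among wild-type libraries alone (0.0035) and in 2 of 12 fits that left out 1 library, without the cartilage libraries labelled Scx-/- replicate 3 (3.15e-09) and replicate 1 (log2 fold change −1.43). Among Scx-/- libraries its log2 fold change was −1.93, and −0.41 without replicate 1 of cartilage.

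**Figure D2:**
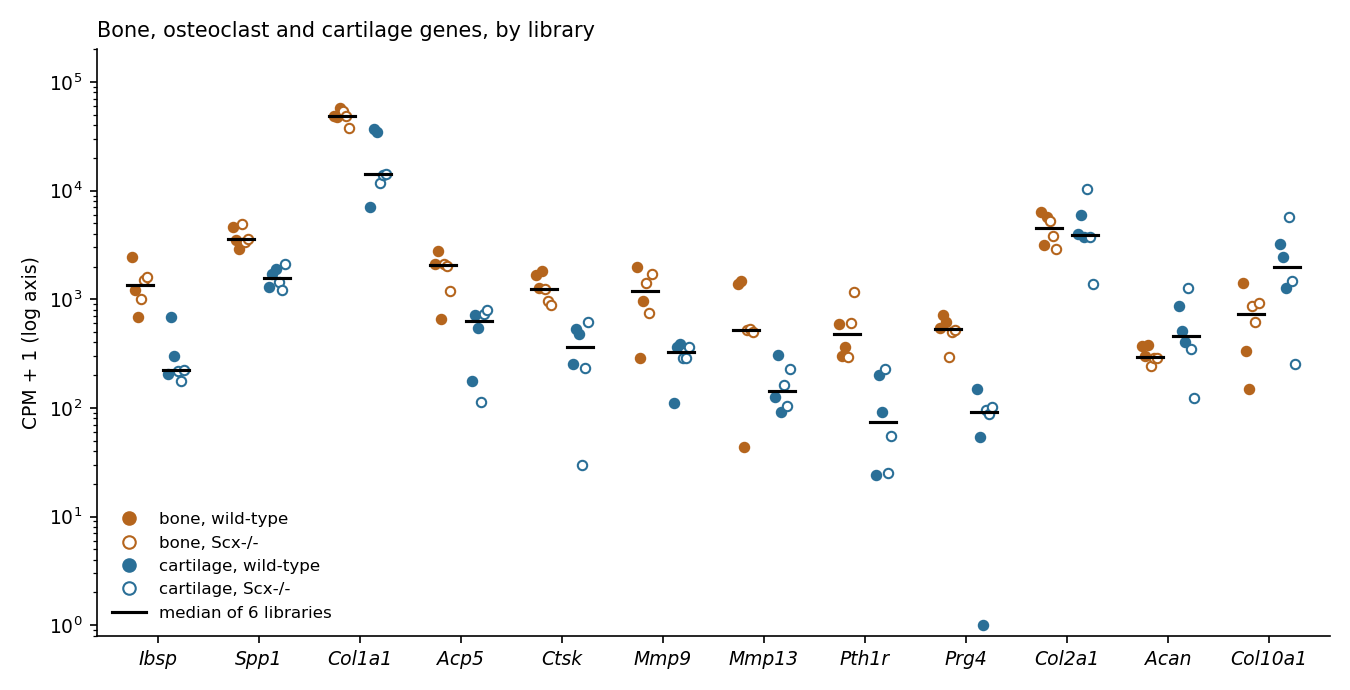
CPM + 1 (log axis) of 12 bone, osteoclast and cartilage genes in each library, with filled points for wild-type, open points for Scx-/- and a bar at the median of 6 libraries. Ctsk, Pth1r and Prg4 were higher in all bone libraries than in any cartilage library, whereas Col2a1, Acan and Col10a1 overlapped between the tissues.

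Skeletal muscle genes made up much of what was higher in cartilage. Of the 151 genes, 59 (39.1%) had their highest mean of all 16 tissues in skeletal muscle, against 2.85% of all genes tested. Another 26 (17.2%) had it in heart, against 5.02%, and 20 (13.2%) had it in cartilage, against 4.4%. Genes of fast muscle fibres took 16.6% to 21.6% of all counts in cartilage (median 19.1%) and 3.78% to 12.6% in bone (median 8.87%). Every cartilage library was above every bone library. Of 25 genes tested, 20 were higher in cartilage and 0 in bone, and the median log2 fold change was −1.58. All 25 had a fold change towards cartilage, against 8636 of the 14858 genes tested. With RLE factors or library totals, 14 of the 25 passed, still 0 of them towards bone. Without the genes of the muscle lists, 118 cartilage calls and 21 bone calls were left.

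Acta1 (chr8:123891769-123894751), the gene of skeletal muscle actin, was at 51960 to 61950 CPM in cartilage (median 56560) and at 7489 to 36570 CPM in bone (median 22340). The cartilage libraries lay close together and well above those of bone. Its log2 fold change was −1.78 ± 0.15 (adjusted p = 6.69e-29). Myh1, the myosin heavy chain of fast 2X fibres, had 4387 to 7681 CPM in cartilage (median 6282) and 737 to 1991 CPM in bone (median 1771), with a log2 fold change of −2.31 ± 0.25. Tnni2, the inhibitory troponin of fast fibres, had 6585 to 9889 CPM in cartilage (median 7744) and 1014 to 3777 CPM in bone (median 3590), with a log2 fold change of −1.81 ± 0.23. Neither gene overlapped between the tissues, and both passed the test under all 3 scalings.

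The upstream sequences of Acta1 and Mylpf, a fast myosin light chain, are shown with that of Ctrb1, a pancreatic gene described further below, because all 3 were higher in cartilage and hold the same E-box letters. They are the 250 bases before the start in RefSeq on GRCm38.p6, at chr8:123894776-123895025 (minus strand), chr7:127211358-127211607 (plus strand) and chr8:111691011-111691260 (minus strand). The capitals mark CAGCTG, which reads alike on both strands and is the core bound by myogenic factors such as MYOD, and TATAAA in Acta1.
Acta1: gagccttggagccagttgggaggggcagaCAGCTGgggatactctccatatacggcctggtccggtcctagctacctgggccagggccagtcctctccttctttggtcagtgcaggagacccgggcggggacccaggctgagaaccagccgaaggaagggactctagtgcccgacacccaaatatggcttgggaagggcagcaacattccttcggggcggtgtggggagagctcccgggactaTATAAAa
Mylpf: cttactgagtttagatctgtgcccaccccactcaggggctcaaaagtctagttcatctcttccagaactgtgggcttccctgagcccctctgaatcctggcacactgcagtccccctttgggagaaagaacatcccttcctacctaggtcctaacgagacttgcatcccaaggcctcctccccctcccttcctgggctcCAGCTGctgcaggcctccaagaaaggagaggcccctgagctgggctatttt
Ctrb1: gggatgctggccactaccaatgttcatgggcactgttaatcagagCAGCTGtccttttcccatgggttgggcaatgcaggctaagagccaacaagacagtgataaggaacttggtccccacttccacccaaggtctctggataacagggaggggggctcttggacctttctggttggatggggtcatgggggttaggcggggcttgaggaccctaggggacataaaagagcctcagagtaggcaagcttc
CAGCTG stood 221, 51 and 205 bases before the start in Acta1, Mylpf and Ctrb1. It was found in 8 of the 15 called fast muscle genes with an upstream sequence, in 33 of 119 genes higher in cartilage (27.7%), in 2 of 21 genes higher in bone (9.52%), and in 14.7% of the 10719 genes tested that have one. No window shown here overlapped an annotated exon (GENCODE vM21). That of Mylpf, taken before its RefSeq start, lies inside the GENCODE gene (chr7:127208890-127214298).

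Slow fibre and heart genes moved in both directions. Of 23 tested, 7 were higher in cartilage and 1 was higher in bone under TMM, against 3 and 1 on library totals. Tnnt1 (chr7:4504570-4516382), the troponin T of slow fibres, was at 294 to 804 CPM in cartilage (median 596) and at 0 to 129 CPM in bone (median 27.3). The ranges were far apart, and Tnnt1 was 17.9-fold higher in cartilage (log2 fold change −4.16 ± 0.59, adjusted p = 1.83e-09). Its mean over the 16 tissues was highest in cartilage, above that of skeletal muscle (264 CPM).

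Actc1 (chr2:114047282-114053548), the cardiac actin that young skeletal muscle also expresses, went the opposite way. It spanned 347 to 2185 CPM in bone (median 1124) and 24.4 to 351 CPM in cartilage (median 129). A single pair of libraries met at the edge, and Actc1 was 8.67-fold higher in bone (log2 fold change 3.12 ± 0.48, adjusted p = 4.98e-08). The heart genes Myh6 and Tnni3 were detected in bone and were at 0 in all cartilage libraries, with adjusted p-values of 0.0924 and 0.0767. Tnnt2, the cardiac troponin T, held 21 and 24 counts in wild-type and Scx-/- bone and 6 and 18 counts in cartilage (adjusted p = 0.518). These 3 were picked after their values were seen.

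Genes of oxidative metabolism also leaned towards cartilage. Nuclear-encoded respiratory chain genes took 2.23% to 2.9% of counts in cartilage and 0.955% to 2.01% in bone, without overlap. Of 45 tested, 8 were higher in cartilage and 0 in bone under TMM, but 0 passed with RLE factors or library totals. A fold change towards cartilage was found for 44 of the 45, against 8636 of the 14858 genes tested. Atp5b, the beta subunit of the ATP synthase, had 1269 to 2208 CPM in cartilage (median 1640) and 520 to 1065 CPM in bone (median 677), with a log2 fold change of −1.57 ± 0.34 and an adjusted p of 0.000931 under TMM and 0.0667 on library totals. These counts lie beside a share of fast muscle genes that was higher in every cartilage library, and the part of muscle RNA in them was not tested.

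Of 20 adipocyte genes tested, 5 were higher in cartilage and 0 in bone, while 15 did not pass. Those that passed were Car3, Cfd, Cox8b, Lpl and Pnpla2. None of the 5 defining fat markers (Adipoq, Plin1, Cidec, Lep and Fabp4) passed over all 12 libraries. The part of muscle RNA in these calls and in the share of the list was not tested. The list took 0.685% to 1.12% of counts in cartilage and 0.162% to 0.528% in bone, without overlap. On library totals 3 passed, and the calls of Lpl, which encodes lipoprotein lipase, and Pnpla2, the gene of a triglyceride lipase, were lost (adjusted p = 0.0563 and 0.157). Cfd, which encodes adipsin, a serine protease secreted by fat cells, spanned 562 to 1166 CPM in cartilage (median 749) and 0 to 568 CPM in bone (median 124), with a log2 fold change of −2.67 ± 0.48 (adjusted p = 1.2e-05). Car3, a carbonic anhydrase of fat and slow muscle, spanned 1326 to 4988 CPM in cartilage (median 2452) and 243 to 804 CPM in bone (median 604), with a log2 fold change of −2.65 ± 0.33. The fat-specific gene Adipoq, which encodes adiponectin, did not pass (4.03 to 197 CPM in cartilage and 0 to 166 CPM in bone, adjusted p = 0.611). Its log2 fold change was −4.82 among wild-type and 0.62 among Scx-/- libraries, and that of Fabp4, a fatty acid carrier of fat cells, was −3.84 and −0.1. Fabp4 passed among wild-type libraries alone (adjusted p = 0.000511) and in 4 of 12 fits that left out 1 library, but not over all 12 libraries (0.0562).

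**Figure D3:**
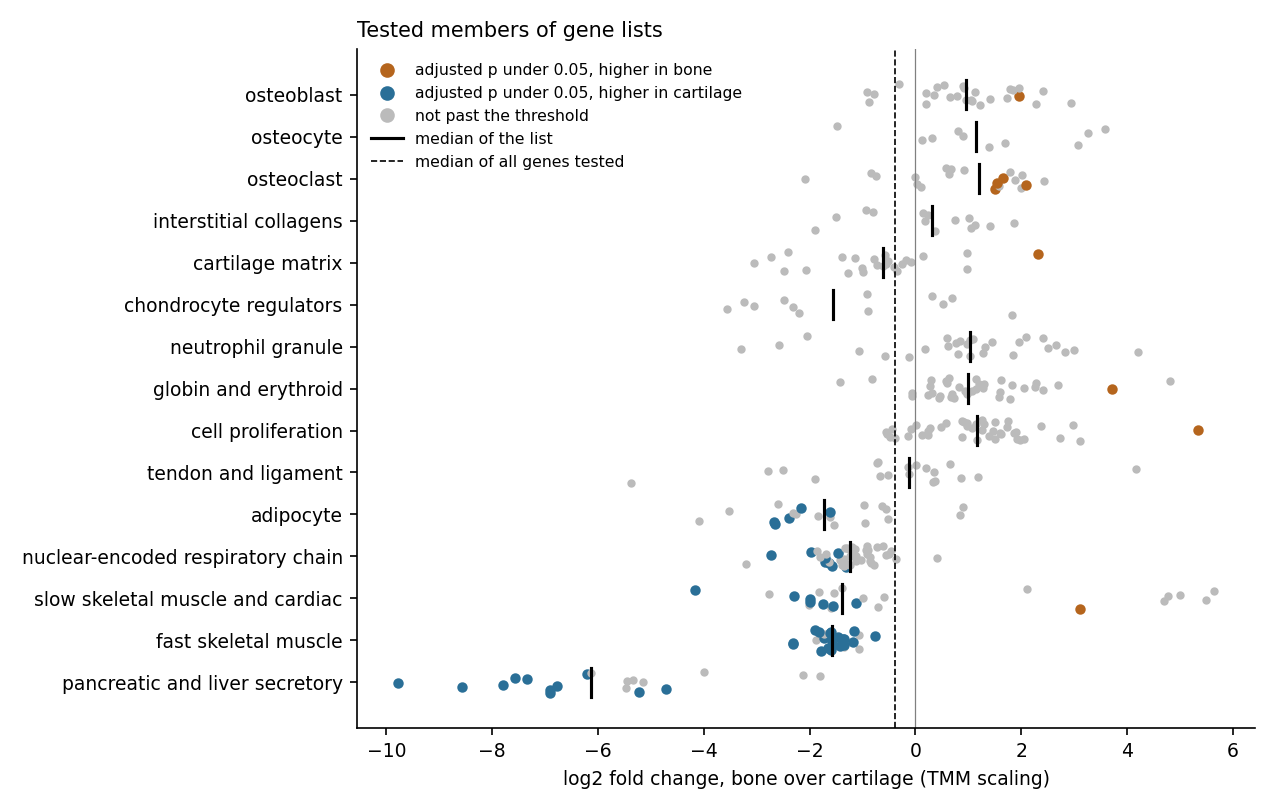
Log2 fold change of bone over cartilage (TMM scaling) for every tested member of 15 gene lists, with coloured points for genes past an adjusted p of 0.05, a black bar at the median of the list and a dashed line at the median of all genes tested (−0.38). The fast muscle genes lie together at about their median of −1.58, the pancreatic and liver genes reach furthest towards cartilage, and the osteoclast list holds 4 coloured points on the bone side.

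Among signalling genes, few differed. Of 31 Wnt pathway genes tested, 1 was higher in cartilage and 0 in bone. This was Frzb (chr2:80411970-80447625), a secreted Wnt antagonist of cartilage, with 40.3 to 432 CPM in cartilage (median 103) and 0 to 86.7 CPM in bone (median 0). Most bone libraries held no count of it (log2 fold change −3.78 ± 0.96, adjusted p = 0.0111, and 0.0506 on library totals). Over the 12 fits that left out 1 library, its log2 fold change spanned −5.67 to −3.32. The adjusted p was 0.281 without wild-type cartilage replicate 1 and 0.135 without the cartilage library labelled Scx-/- replicate 1. Of 26 IGF and FGF genes tested, 2 were higher in cartilage, the imprinted neighbours H19 and Igf2.

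H19 (chr7:142575529-142578143), a long non-coding RNA of fetal tissues and muscle, spanned 2500 to 6657 CPM in cartilage (median 5293) and 711 to 2398 CPM in bone (median 1625). It did not overlap between the tissues and was 4.01-fold higher in cartilage (log2 fold change −2.0 ± 0.26, adjusted p = 4.26e-11). Igf2 (chr7:142650766-142666816), a fetal growth factor, spanned 856 to 1816 CPM in cartilage and 213 to 1337 CPM in bone, with overlap (log2 fold change −1.28 ± 0.36, adjusted p = 0.0334, and 0.248 on library totals), and its call was lost in 7 of 12 fits that left out 1 library. The mean of H19 over the tissues was highest in skeletal muscle (5137 CPM), and that of Igf2 in cartilage. Of 14 ligands and 35 receptors, Smads and antagonists of the BMP and TGF-beta pathways, 0 passed by edgeR or DESeq2. At an unadjusted p under 0.05 1 ligand leaned towards bone and 2 towards cartilage, as did 1 and 3 of the others, and limma voom called 3 and 1 in each list. For the receptors, Smads and antagonists, 4 of 35 is close to the 11% of all genes tested. Of 20 mineral and phosphate handling genes tested, Pth1r was higher in bone and Ahsg in cartilage. Ahsg is also among the liver genes described below. Its counts in cartilage were 0.32% (wild-type) and 0.28% (Scx-/-) of those in liver.

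Neutrophil granule genes took 0.17% to 0.825% of counts in bone and 0.0108% to 0.746% in cartilage, globin and erythroid genes 0.429% to 1.67% and 0.131% to 0.725%. The ranges of both lists overlapped, their median log2 fold changes were 1.03 and 0.99, and 0 of 28 and 1 of 38 members passed under TMM. On library totals or with RLE factors 0 neutrophil and 4 erythroid genes passed, all higher in bone, among them Hba-a1, an alpha globin gene (adjusted p = 0.0207 on library totals), and Slc4a1, the anion exchanger of red cells (0.0488). At an unadjusted p under 0.05 by edgeR, 3 neutrophil and 8 erythroid genes leaned towards bone, against 3.88% of all genes tested. For the neutrophil list DESeq2 called 0 and limma voom 8. The erythroid gene that passed under TMM was Hemgn (chr4:46393989-46413506), a nuclear protein of blood progenitors and erythroid cells, with 142 to 451 CPM in bone (median 333) and 0 to 61.6 CPM in cartilage (median 2.43). Hemgn was 13.1-fold higher in bone (log2 fold change 3.71 ± 0.78, adjusted p = 0.000478). Its log2 fold change spanned 3.45 to 4.75 over the 12 fits that left out 1 library. Among 43 proliferation genes, Mcm3, a subunit of the replicative helicase, was the single one called, with 61 counts in bone and 2 in cartilage (a CPM ratio of 71.0, 95% counting interval 18.8 to 599, adjusted p = 0.0307), and 8 of 12 fits without 1 library lost the call. Without the genes of the blood cell lists, 26 bone and 151 cartilage calls were left.

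Some calls came from genes that belong to organs other than bone, cartilage or muscle. A mean at least 20 times higher in another tissue of the series was found for 28 of the 151 genes higher in cartilage (18.5%) and 4 of the 27 higher in bone (14.8%), against 11.4% of all genes tested. The bone share is close to that of all genes. Without all genes of this kind, called or not, 110 and 22 genes were called among 13169 tested, an alternative added after the results were seen. Pancreatic enzymes, stomach genes and liver plasma proteins made up the cartilage set, and kidney and bladder genes the bone set. Of 19 genes on a list of pancreatic and liver secretory genes, 11 were higher in cartilage and 0 in bone, and the list took 0.123% to 0.411% of counts in cartilage and 0.00333% to 0.0149% in bone.

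Ctrb1 (chr8:111686519-111691010), the gene of the digestive proenzyme chymotrypsinogen B, was at 94.3 to 963 CPM in cartilage (median 567) and at 0 in every bone library. With 774 counts in cartilage and a floor of 3 counts over the bone group, it was at least 110.9-fold higher in cartilage (adjusted p = 1.15e-18). Its mean was 136500 CPM in the adipose-labelled libraries. Tff1, a peptide of gastric mucus, was at 174 to 471 CPM in cartilage and at 0 in every bone library, at least 58.9-fold higher in cartilage. Alb, which encodes serum albumin, was at 266 to 872 CPM in cartilage (median 605) and at 0 to 63.7 CPM in bone (log2 fold change −5.22 ± 0.64, adjusted p = 1.3e-12).

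In bone, Kap (chr6:133849851-133853762), a kidney protein regulated by androgen, was at 41.6 to 1004 CPM (median 202), and cartilage held 1 count of it in all. The CPM ratio was 347 with a 95% counting interval of 61.3 to 13790, and the adjusted p was 1.66e-08. Slc34a1, a phosphate transporter of the kidney tubule, and Umod, the gene of uromodulin, were detected in every bone library and in no cartilage library (at least 24.1-fold and 23.3-fold higher in bone). Both calls, and that of the bladder and skin gene Sprr1a, were lost in 9 or more of the 12 fits without 1 library. Without the cartilage library labelled Scx-/- replicate 1 the adjusted p-values of Slc34a1, Umod and Sprr1a were 0.077, 0.0913 and 0.0913.

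The counts of pancreatic genes in cartilage kept a nearly fixed proportion to those of the adipose-labelled libraries. Summed over 16 pancreatic genes, the cartilage libraries held 340, 262 and 192 counts in wild-type replicates 1, 2 and 3, which is 0.335%, 0.357% and 0.293% of the counts of the same genes in the adipose-labelled library of the same genotype and number. In those labelled Scx-/- they held 992, 804 and 1160 counts, or 0.339%, 0.333% and 0.328%. The adipose-labelled libraries were deeper in Scx-/- than in wild-type mice (1271099 against 345862 counts in all), while cartilage totals were alike (723221 against 741607). The percentages thus stayed close while the counts differed between the genotypes.

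Genes of other organs were set against their tissue in the same way. For 6 stomach genes, the cartilage libraries held 0.264% to 0.3% of the counts of the stomach library of the same genotype and number in wild-type and 0.272% to 0.283% in Scx-/- mice, from 651 and 711 counts in cartilage and 231633 and 254623 in stomach. For the 3 kidney genes in bone, the percentages were 0.22%, 0.276% and 0.217% in wild-type and 0.243%, 0.334% and 0.178% in Scx-/- mice, with 168 counts in wild-type bone and 42 in Scx-/- bone. Sprr1a in bone, with 2 to 9 counts a library, came to 0.494%, 0.256% and 0.225% of its bladder counts in wild-type and to 0.264%, 0.573% and 0.193% in Scx-/- mice. For 6 liver genes in cartilage, the percentages were 0.42%, 0.375% and 0.522% in wild-type and 0.361%, 0.315% and 0.327% in Scx-/- mice. Among them, Alb came to 0.376% and 0.313% and Apoa2, an apolipoprotein, to 0.527% and 0.385% by genotype (adjusted p = 0.136 for Apoa2 between bone and cartilage without the cartilage library labelled Scx-/- replicate 1, and 0.121 on library totals). Ahsg came to 0.32% and 0.28% and Apoa1 to 0.373% and 0.271%. Serpina1b came to 1.02% and 1.33% and Serpina1d, its paralog among the plasma protease inhibitors, to 3.28% and 0.222%. By gene, those of the pancreas spanned 0.181% to 0.449% in wild-type and 0.27% to 0.372% in Scx-/- mice. The wider spread of the liver genes thus lay in Serpina1b and Serpina1d.

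Muscle genes in cartilage did not stand in that proportion. By genotype, Acta1 counts in cartilage were 32.2% (wild-type) and 19.1% (Scx-/-) of those in skeletal muscle, and Mylpf counts 23% and 11.4%. The muscle libraries held 1376058 counts in wild-type (30409 in the smallest) and 2481714 in Scx-/- mice, and these percentages are not scaled for depth. In bone, Acta1 came to 2.69% and 4% of the muscle counts. Actc1 in bone came to 1.44% and 4.23% of its heart counts, whereas Myh6 came to 0.256% and 0.275% and Tnni3 to 0.206% and 0.241%. Tnnt2 came to 0.31% and 0.359% of its heart counts in bone and 0.0884% and 0.269% in cartilage. What sets these proportions, an exchange of barcodes between pooled libraries included, was not tested, and the fold changes of these genes are differences between libraries.

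**Figure D4:**
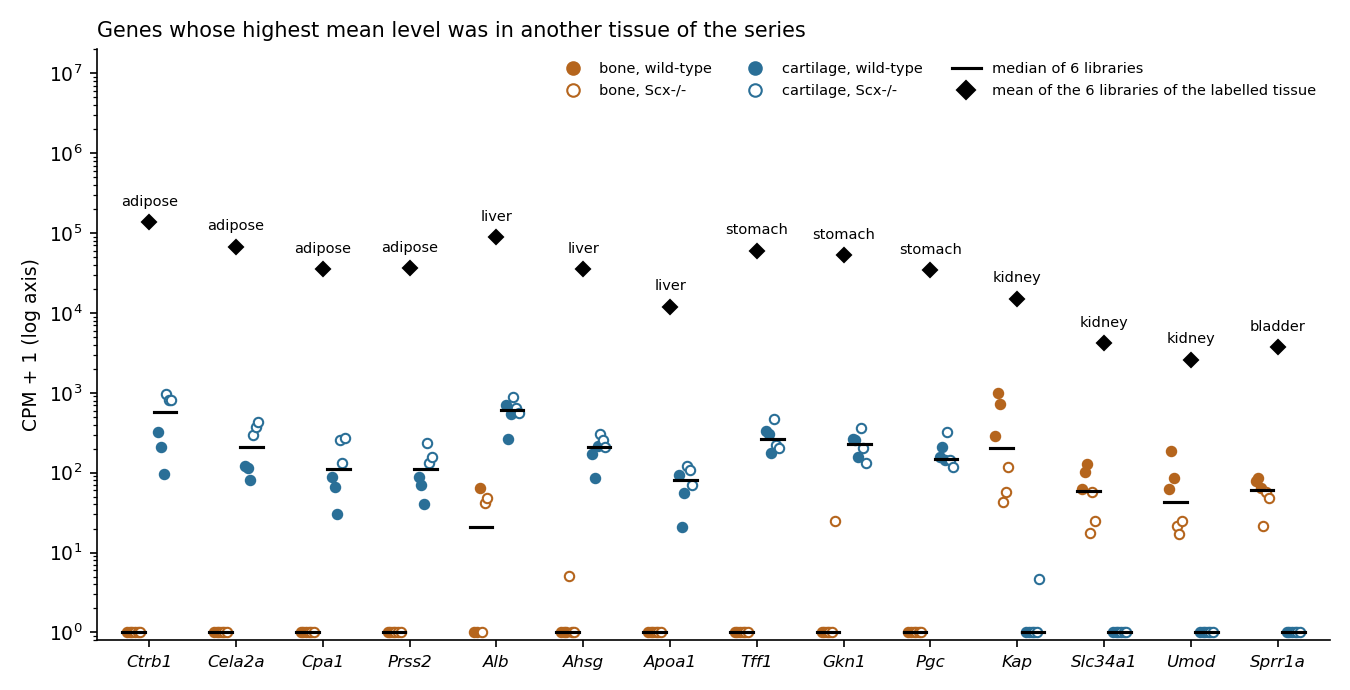
CPM + 1 (log axis) in each bone and cartilage library of 14 genes whose mean was highest in another tissue of the series, with a black diamond at the mean of the 6 libraries of the tissue named above it. Cartilage libraries held the adipose, liver and stomach genes and bone libraries the kidney and bladder genes, each far below the diamond.

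The difference between the tissues was also set side by side in the 2 genotypes, with the library labelled Scx-/- that held Scx counts included. Of 14858 genes, 0 had an adjusted p under 0.05 for the interaction of tissue and genotype by edgeR (0%), 831 had an unadjusted p under 0.05 (5.59%), DESeq2 called 0 and limma voom 10. For Ibsp the log2 fold change was 2.38 among Scx-/- libraries and 1.6 among wild-type ones. In the order wild-type and Scx-/-, it was 1.59 and 1.54 for Ctsk, 2.82 and 1.85 for Prg4, −1.97 and −1.54 for Acta1, and −2.04 and −1.93 for H19. With 3 against 3 libraries, 7 bone and 50 cartilage genes passed in wild-type and 6 and 53 in Scx-/- mice. Among the Scx-/- libraries without the cartilage library that held Scx counts, 8 and 34 genes passed, and the log2 fold changes of Ibsp, Prg4, Acta1 and H19 were 2.43, 1.85, −1.55 and −1.93. That of Ctsk fell from 1.54 to 1.0. Without that library 0 interactions were called.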

How the data were processed

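MuSeq libraries of 6 bone and 6 cartilage samples were grouped by their labels. The deposited files hold raw read counts per gene. The authors aligned reads to mm10 using Bowtie2 and counted them using HTSeq. Tool versions, strand setting and molecular identifiers are not stated in the labels or methods. Columns without a sample numbered 0. Genes at 0 in all 12 libraries were removed, and the rest were fitted with edgeR 4.0.16 (R 4.3.3; TMM, glmQLFit with robust estimation, terms for genotype and tissue, Benjamini-Hochberg adjustment). Standard errors were taken from the fold change and the F value, and CPM uses library totals. Intervals and the floor of 3 counts cover counting error only. Bone totals of 42272 counts and more limit what can be seen of low genes. The script was tested on simulated data.

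The genes named are up to 12 per direction with the largest fold change among those called, without overlap and with a mean of at least 50 CPM, the defining and the 4 most abundant members of each list, Scx, and called members of signalling and matrix lists, and not all are printed. The members and gene lists were chosen with earlier results of these data known. Upstream sequences come from RefSeq (GRCm38.p6), and 21 of 27 and 119 of 151 called genes had one. Gene coordinates come from GENCODE vM21 (383 of 387 genes wanted had 1 position). Alternatives were RLE factors, library totals, filterByExpr, DESeq2 1.42.0, limma 3.58.1 voom with sample weights, no genotype term, the replicate number as a block, each genotype alone, thinning to the smallest total, blood or muscle lists removed, and leaving out each library. The removal of genes 20 times higher elsewhere, and the Scx-/- libraries less the doubted cartilage library, were added after the data were seen.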

Additional observations from a re-analysis of the deposited data

Results flagged for a closer look

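Csf1, which encodes the growth factor that osteoclast precursors need, had values on opposite sides between the tissues in the 2 genotypes, and passed the test in neither (edgeR's adjusted p was 0.591 for wild-type libraries alone and 0.873 for those labelled Scx-/-). In wild-type mice the bone libraries held 69.3, 184 and 149 CPM and the cartilage libraries 4.59, 12.1 and 7.25 CPM (log2 fold change 3.56). In Scx-/- mice the bone libraries held 8.31, 24.1 and 23.7 CPM and the cartilage libraries 33.1, 39.0 and 25.4 CPM (log2 fold change −1.15). Every bone library was above every cartilage library in the former and below in the latter, which drew attention to Csf1 without a test of the difference. The Scx-/- bone value of 23.7 CPM is a single count in the shallowest bone library (42272 counts). The lowest values thus lie near the counting floor, and the gap between 23.7 and 25.4 CPM is smaller than that count. By edgeR's interaction test the difference between the genotypes was −4.66 on the log2 scale with an adjusted p of 0.888 (unadjusted p = 0.0779). The cartilage library with 33.1 CPM is the one labelled Scx-/- that held 9 Scx counts.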

How the results depend on the processing

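The 27 bone and 151 cartilage calls became 48 and 75 with RLE factors, 50 and 75 on library totals, 101 and 147 by DESeq2 (8759 genes without an adjusted p), and 1966 and 542 by limma voom with sample weights, which also called 10 interactions. The cause of the voom counts was not tested. With libraries thinned to the smallest total, 21 and 75 genes were called, in wild-type libraries alone 7 and 50, in Scx-/- libraries alone 6 and 53, and in these without the cartilage library that held Scx counts 8 and 34, a fit chosen after seeing the data. The numbers of the replicates did not pair bone with cartilage libraries (correlation of deviations −0.052 to 0.043 over 6 pairs), and a fit with the replicate block gave 12 bone and 130 cartilage genes. Leaving out 1 library gave 15 to 30 bone genes and 109 to 152 cartilage genes. Of the 27 and 151 calls, 6 (Actc1, Ckb, Hemgn, Ibsp, Kap and Vcan, of which Vcan was chosen after its values were seen) and 81 held in all 12 of these fits. Cd3d changed sign under voom, to a log2 fold change of 1.36. Over the other values of named genes, 424 calls fell short of the threshold and 126 values came past it. In 6064 a call stayed, or a value without one moved by at most 1 SE, and 308 values without a call moved further. Of 4779 values called in neither fit, 326 (100 genes) changed sign, that of Scx on library totals among them. Depth limits the bone side most, since 1 count in the shallowest bone library equals 23.7 CPM.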
